A study of Mus musculus with 6 samples.

Results

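Cells show fragments of their own proteins to CD8 T cells on MHC class I molecules, and the genes of that route are described here in primary mouse keratinocytes after UVB. The set comprises 10 genes taken by symbol: the heavy chains H2-K1 and H2-D1, their partner B2m, the loading genes Tap1, Tap2 and Tapbp, the immunoproteasome genes Psmb8, Psmb9 and Psmb10, and the transactivator Nlrc5. They are 10 of the 55416 genes in the deposited count table, and all 10 passed the filter on low counts that left 17659 genes for testing. RNA came from keratinocytes of Cebpb knockout pups (label CEBPB KO) and wild type pups (label wt), 1 to 2 days old and of a C57BL/6J:129 hybrid background. Cebpb encodes the transcription factor C/EBPβ. Both genotypes were grown in 0.05 mM calcium, irradiated 5 days after plating with 10 mJ/cm2 from a 312 nm UVB lamp, and collected 8 h later. There are 3 knockout and 3 wild type libraries and no unirradiated cells, so each value is a difference between genotypes after UVB and not a response to UVB.

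A class I molecule is a heavy chain bound to beta-2-microglobulin and a short peptide. The proteasome cuts the peptides, the TAP transporter moves them into the endoplasmic reticulum, and tapasin holds the empty class I molecule beside TAP while it is filled. Interferon gamma is known to replace the catalytic subunits of the constitutive proteasome by the immunoproteasome subunits, and NLRC5 is known to drive class I gene transcription. Keratinocytes, which build the epidermis, carry class I molecules and can be killed by T cells in skin.

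Total counts were 81256192 to 92987497 in the knockout libraries and 107757415 to 122797031 in the wild type libraries. Cebpb had 78 to 109 counts in the knockout libraries, against 12036 to 18184 in the wild type libraries. Summed transcripts of 4 Y-linked genes stood at 0.101 to 0.158 CPM (reads of a gene per 1e6 reads, after the TMM scaling that edgeR uses to set libraries against each other) in the knockout libraries and at 60.7 to 68.1 CPM in the wild type libraries. Genotype and the Y-linked difference separate the same libraries, so their parts in the results cannot be told apart. All 8 keratinocyte markers were present and called lower in knockout cells, with a summed level of 23028 to 24059 CPM against 39176 to 44131 CPM in wild type cells. Of 12 leukocyte and Langerhans cell markers, 4 were abundant enough to test, and the pan-leukocyte gene Ptprc had 0 counts in every knockout library and 0 to 5 in the wild type libraries. The summed level of these 12 was 28.6 to 32.0 CPM in knockout and 49.4 to 59.8 CPM in wild type cells, most of it Cd68 (27.2 and 49.1 CPM on average). The part of these shifts in the results was not tested. Cd3e was at 0 in all libraries. Of the 4 tested markers, 3 were called lower, namely Cd68, Csf1r (2.35 CPM in knockout and 3.22 CPM in wild type cells) and Lyz2. Lyz2 had 1, 12 and 0 counts in the knockout libraries and 163, 86 and 120 in the wild type libraries. The Csf1r call was lost when libraries were scaled by their totals (-0.26). The T cell receptor gene Trdc was the 1 marker called higher, at 0.438 CPM in knockout and 0.0293 CPM in wild type cells. Melanocyte markers were present, at 607 to 688 CPM in knockout and 695 to 783 CPM in wild type cells, with 5 of 7 called lower, or 2 of 7 when libraries were scaled by their totals in place of TMM (median log2 fold change -0.07). The 6 fibroblast markers summed to at most 4.44 CPM in knockout and 6.37 CPM in wild type cells, and the 5 endothelial markers to at most 5.32 CPM in knockout and 6.92 CPM in wild type cells. In bulk RNA, fewer cells of a type and less RNA per cell cannot be told apart.

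Of the 10 genes, 9 were higher in knockout cells, 0 were lower and 1, Nlrc5, was not called, and DESeq2, limma and an unadjusted edgeR p under 0.05 gave the same counts. The call is a Benjamini-Hochberg adjusted p under 0.05 in edgeR's quasi-likelihood test over all 17659 genes, 24.8% of which were called higher and 23.7% lower. The knockout and wild type libraries did not overlap in those 9 genes, and they did not overlap in 56.4% of all genes tested. The median log2 fold change, knockout over wild type, was 0.69 over the 10 genes and 0.01 over all genes tested. By role, the class I chains lay between 0.30 and 0.56, the immunoproteasome subunits between 1.02 and 1.06, and the loading genes ranged widely, from 0.29 to 1.35.

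The promoter windows of H2-K1, H2-D1 and B2m are shown first because these genes code for the 2 chains of the class I molecule and the windows share an arrangement of motifs. The fourth window lies between Tap1 and Psmb9, which start 226 bases apart on opposite strands, so that 275 of its 300 bases belong to both genes' windows. Each runs 5′ to 3′ on the strand of the named gene from 250 bases before the annotated start to 50 after it. The windows are from RefSeq on the build GRCm38.p6, an older build than that of the counts. H2-K1 had 2 windows and the first was used, so its positions depend on that choice of start. In it TGACG begins at -41, against -101 in H2-D1. Capitals mark matches on either strand to a kB-type motif (GGG, any 2 bases, TT, any base, CC), an ISRE-type motif (GAAA, any 2 bases, GAAA), GAANNGAAA (IRF-type, which differs from the ISRE-type motif in its spacing), TGACG (the core of a CRE) and CCAAT, which reads ATTGG on the other strand. The spelling of the kB-type and IRF-type motifs, and the pair described next, were chosen after the windows had been read.
H2-K1 (chr17:34000298-34000597, minus strand): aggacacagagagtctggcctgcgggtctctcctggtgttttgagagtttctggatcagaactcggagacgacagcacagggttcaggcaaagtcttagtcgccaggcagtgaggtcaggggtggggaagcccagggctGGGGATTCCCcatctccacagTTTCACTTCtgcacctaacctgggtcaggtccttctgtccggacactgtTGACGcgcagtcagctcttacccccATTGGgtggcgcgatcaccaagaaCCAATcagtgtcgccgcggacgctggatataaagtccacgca
H2-D1 (chr17:35262844-35263143, plus strand): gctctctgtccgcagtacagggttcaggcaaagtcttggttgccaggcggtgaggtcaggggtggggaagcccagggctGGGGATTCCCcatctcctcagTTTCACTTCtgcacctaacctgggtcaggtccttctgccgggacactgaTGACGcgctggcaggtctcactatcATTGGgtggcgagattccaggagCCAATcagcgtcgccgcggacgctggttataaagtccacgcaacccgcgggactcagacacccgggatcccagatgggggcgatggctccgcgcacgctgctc
B2m (chr2:122147437-122147736, plus strand): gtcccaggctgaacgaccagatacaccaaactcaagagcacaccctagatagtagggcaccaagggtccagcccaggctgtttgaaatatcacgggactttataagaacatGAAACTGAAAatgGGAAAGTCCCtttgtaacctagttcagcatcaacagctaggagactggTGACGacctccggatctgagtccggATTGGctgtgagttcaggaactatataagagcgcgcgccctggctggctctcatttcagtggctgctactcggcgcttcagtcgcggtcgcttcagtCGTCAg
Tap1 and Psmb9 (chr17:34187306-34187605, plus strand, read as Tap1): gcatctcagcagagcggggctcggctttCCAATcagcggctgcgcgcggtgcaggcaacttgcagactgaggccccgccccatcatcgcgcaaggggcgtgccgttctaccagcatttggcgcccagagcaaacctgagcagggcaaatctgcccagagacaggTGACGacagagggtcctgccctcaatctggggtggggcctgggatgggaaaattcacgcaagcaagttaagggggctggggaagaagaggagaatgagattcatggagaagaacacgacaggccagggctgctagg

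In the H2-K1, H2-D1 and B2m windows alike, TGACG was followed after exactly 20 bases by ATTGG. That pair, on either strand, occurred in 31 of 32851 windows of the same length (0.0944%), and those windows belonged to 27 genes. Besides the 3 above, they included the class I gene H2-M3, at 0.985 CPM in knockout and 0.466 CPM in wild type cells. Trim26 was another, at 80.2 CPM in knockout and 46.3 CPM in wild type cells. Of the 21 such genes that were tested, 7 were higher in knockout cells and 4 lower, while 10 missed the threshold (median log2 fold change -0.05). The 4 lower ones were Per1 (-0.97), Kcnq1ot1 (-0.61), Nrarp (-0.57) and Znrd1 (-0.49). The 7 higher ones include H2-M3, Trim26 and H2-K1, H2-D1 and B2m, in which the pair was found. Over all genes tested, 24.8% were higher and 23.7% lower. A kB-type match lay in 3 of the 8 members' windows at hand (H2-K1, H2-D1 and B2m), and in 4.79% of all windows. The IRF-type match lay in H2-K1 and H2-D1 (7.52% of all windows), the ISRE-type match in B2m (3.44%), and a GAS-type match, TTCNNNGAA, in Psmb8 (8.30%). CCAAT was found in 6 of the 8 windows (37.4% of all windows) and TGACG in 5 of 8 (20.8%). The overlapping Tap1 and Psmb9 windows hold the same CCAAT and TGACG sites, so each of these sites is counted for both genes. A C/EBP-type spelling, TTGCNNAA, was in 0 of the 8 windows and in 10.8% of all windows. The longest run of identical bases in the H2-K1 and H2-D1 windows was 47 bases. A match is a run of letters and not a measured binding site, and a missing match says only that those letters are not in these 300 bases.

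**Figure D1:**
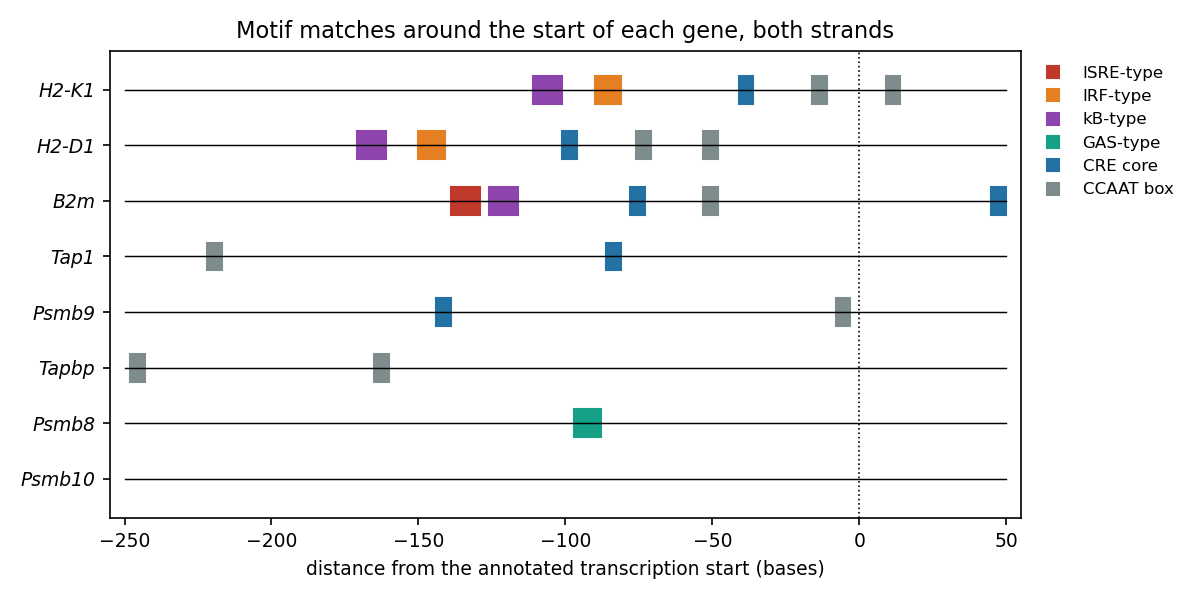
Positions of motif matches from 250 bases before to 50 bases after the annotated start (dotted line) of 8 of the 10 genes, on either strand, one row per gene. H2-K1 is drawn from the first of its 2 windows. H2-K1, H2-D1 and B2m each hold a kB-type match upstream of a CRE core and a CCAAT box that are 20 bases apart, and Psmb10 holds no match.

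The class I chains rose by between 1.23-fold and 1.47-fold. H2-K1 (ENSMUSG00000061232, chromosome 17), a classical heavy chain that presents peptides, had 794, 842 and 812 CPM in knockout libraries, against 695, 621 and 668 CPM in wild type libraries. The lowest knockout library lay above the highest wild type one, and the log2 fold change was 0.30 ± 0.06 (SE, edgeR adjusted p = 0.000353). H2-D1 (ENSMUSG00000073411, chromosome 17), the other classical heavy chain, had 661, 675 and 668 CPM in knockout libraries, against 545, 497 and 533 CPM in wild type libraries. It rose by 0.35 ± 0.05 (edgeR adjusted p = 6.05e-05), with no overlap. B2m (ENSMUSG00000060802, chromosome 2), the invariant light chain that binds the heavy chains, had 264, 262 and 292 CPM in knockout libraries, against 196, 180 and 179 CPM in wild type libraries. The rise was 0.56 ± 0.06 (edgeR adjusted p = 1.55e-06), again with no overlap.

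The 2 heavy chains kept nearly the same proportion in both genotypes. The read ratio of H2-K1 to H2-D1 was 1.20, 1.25 and 1.22 in knockout libraries and 1.28, 1.25 and 1.25 in wild type libraries. The difference was -0.05 log2 units, and although the libraries did not overlap, the exact two-sided permutation p of 0.1 is the smallest that 3 against 3 libraries allow. Class I genes resemble each other, so reads can be shared. No stretch of 100 bases of the H2-K1 coding transcript recurred in another gene's transcript of GENCODE M21, while 4.64% of those of H2-D1 did. When the counts of 19 class I heavy chain genes named H2 were summed into 1 row, a step added once the data had been looked at, the sum stood at 1734, 1800 and 1765 CPM in knockout libraries. It stood at 1432, 1295 and 1386 CPM in wild type libraries (log2 fold change 0.37 ± 0.06, edgeR adjusted p = 4.23e-05). H2-K1 supplied 45.8% to 46.8% of that sum in knockout and 48.0% to 48.6% in wild type libraries.

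**Figure D2:**
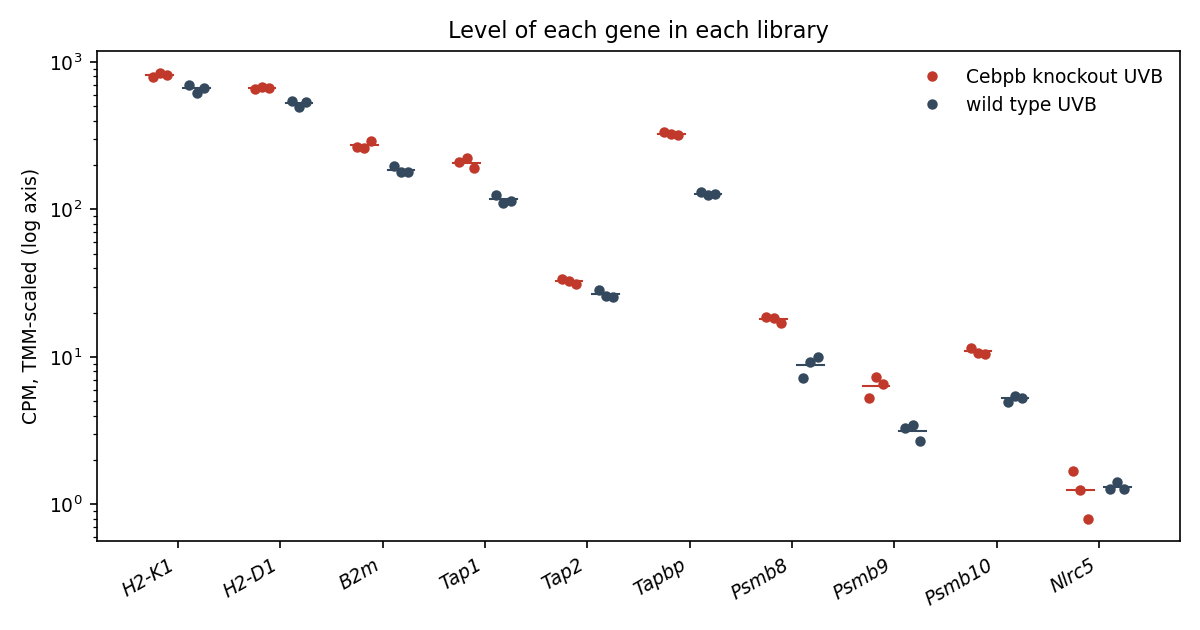
CPM (log axis) of the 10 genes in each of the 3 Cebpb knockout and 3 wild type libraries, points being libraries and bars their means. The knockout points lie above the wild type points for every gene except Nlrc5, where the 3 knockout libraries spread from 0.803 to 1.69 CPM around the wild type ones.

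Nonclassical and other class I heavy chain genes moved in both directions. Of 21 listed, 16 were tested, of which 9 were higher and 3 lower, while 4 missed the threshold (median log2 fold change 0.56). Over all genes tested, 24.8% were higher and 23.7% lower. H2-Q4, a nonclassical gene of the Q region, had 36.1, 34.9 and 37.8 CPM in knockout libraries, against 10.2, 9.54 and 10.0 CPM in wild type libraries, a rise of 1.87 ± 0.08. H2-Bl rose by 2.24 ± 0.18, to 4.31 ± 0.414 CPM in knockout against 0.909 ± 0.124 CPM in wild type cells (SD, n = 3 each). H2-T23, which encodes Qa-1, a ligand of natural killer cell receptors, rose by 0.62 ± 0.06 to 155 ± 0.636 CPM in knockout against 101 ± 6.49 CPM in wild type cells. Cd1d1, which presents lipids to NKT cells, rose by 1.06 ± 0.18. The iron regulator Hfe fell by 0.88 ± 0.19, Mr1, which presents vitamin metabolites to MAIT cells, fell by 0.41 ± 0.12 and H2-Q7 fell by 1.06 ± 0.28. Mr1 and H2-Q7 were named after their values were seen. With library totals in place of TMM, Mr1 was no longer called (-0.21). In H2-Q7, 16.4% of 100-base stretches recurred in other genes, among them H2-Q6, so its value is uncertain.

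The loading genes differed widely among themselves. Tapbp (ENSMUSG00000024308, chromosome 17) encodes tapasin, which tethers class I molecules to TAP and edits their peptides. It had 333, 328 and 321 CPM in knockout libraries, against 131, 126 and 128 CPM in wild type libraries, and its rise of 1.35 ± 0.05 (edgeR adjusted p = 1.10e-11) was the largest of the 10. Tap1 (ENSMUSG00000037321, chromosome 17), which with Tap2 forms the peptide pump, had 209, 223 and 190 CPM in knockout libraries, against 126, 111 and 115 CPM in wild type libraries. It rose by 0.82 ± 0.07 (edgeR adjusted p = 5.68e-08), and the 2 genotypes were well apart. Tap2 (ENSMUSG00000024339, chromosome 17), the other chain of the pump, had 33.7, 32.9 and 31.2 CPM in knockout libraries, against 28.5, 25.9 and 25.3 CPM in wild type libraries. Its rise was the smallest of the 9, 0.29 ± 0.08 (edgeR adjusted p = 0.00564). The read ratio of Tap1 to Tap2 was 6.19, 6.79 and 6.11 in knockout libraries and 4.41, 4.31 and 4.54 in wild type libraries. That is a difference of 0.52 log2 units without overlap, at the smallest exact permutation p possible, 0.1. Within Tapbp, 24.9% of exon bases overlapped Gm19412 on the other strand, which stood at 1.20 CPM in knockout and 0.380 CPM in wild type cells. A further 4.11% of Tapbp exon bases overlapped Zbtb22 on the same strand, at 47.6 CPM in knockout and 49.0 CPM in wild type cells. In Tap2, 14.1% overlapped Gm15821, at 0.0288 CPM in knockout and 0.0248 CPM in wild type cells.

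Genes that act beside TAP and tapasin did not move together. Of 14 listed for loading and trimming, 5 were higher and 3 lower, while 6 missed the threshold (median 0.03). Over all genes tested, 24.8% were higher and 23.7% lower. For the 14, library totals gave 9 higher and 1 lower (median 0.23). Erap1, the aminopeptidase that trims peptides in the endoplasmic reticulum, had 32.1, 28.8 and 37.0 CPM in knockout libraries, against 20.6, 17.7 and 18.4 CPM in wild type libraries, a rise of 0.79 ± 0.10. Tapbpl, a tapasin relative that edits peptides without TAP, rose by 0.43 ± 0.08, and the galactosyltransferase gene B4galt1 rose by 0.82 ± 0.07. Ganab, which trims glucose from new glycoproteins, rose by 0.32 ± 0.05. The chaperone gene Calr fell to 725, 769 and 791 CPM in knockout libraries, against 1053, 964 and 1038 CPM in wild type libraries (-0.42 ± 0.06). Pdia3, a further part of the loading complex, was not called (-0.05 ± 0.06), but turned direction and was called higher with library totals (0.15, edgeR adjusted p = 0.0193).

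**Figure D3:**
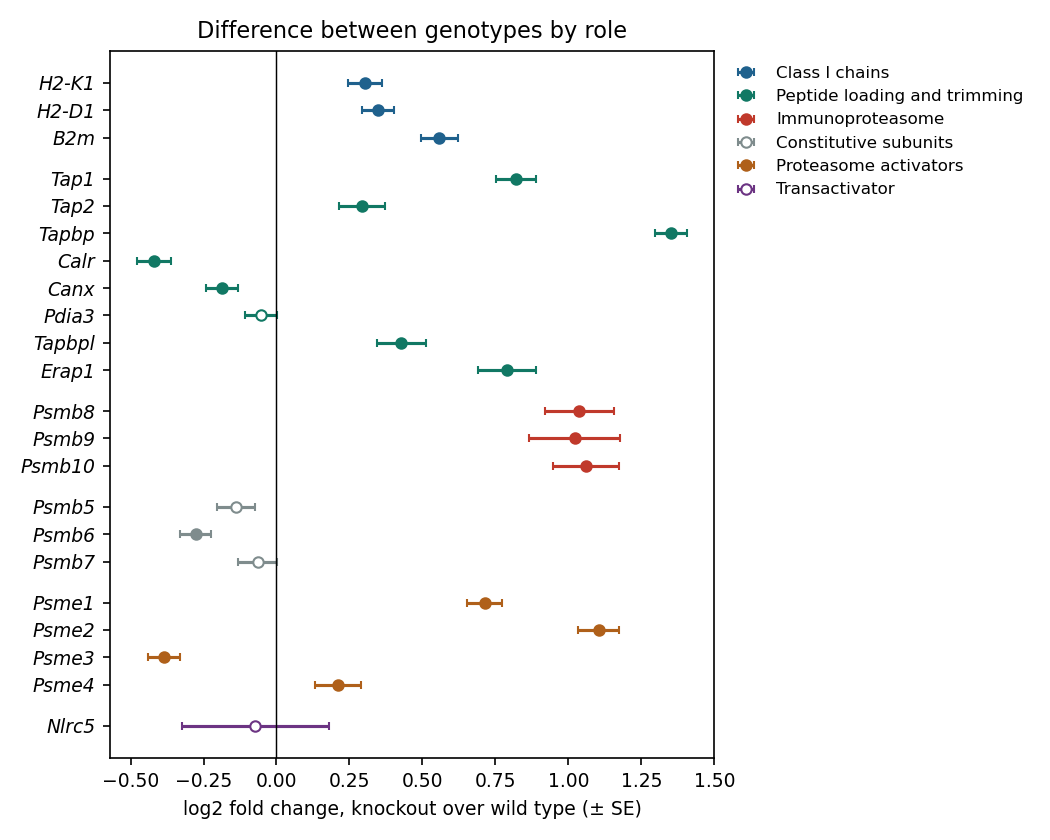
Log2 fold change, knockout over wild type, with its SE for 22 genes by role, open circles marking genes that were not called. Tapbp, the immunoproteasome genes and Psme2 lie above 1, the class I chains between 0.30 and 0.56, and the constitutive catalytic subunits between -0.28 and -0.06.

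The 3 immunoproteasome subunits rose by nearly the same amount. Psmb8 (ENSMUSG00000024338, chromosome 17), which encodes the chymotrypsin-like subunit LMP7, had 18.7, 18.4 and 17.0 CPM in knockout libraries, against 7.21, 9.20 and 9.94 CPM in wild type libraries (1.04 ± 0.12, edgeR adjusted p = 2.17e-06). Psmb9 (ENSMUSG00000096727, chromosome 17), which encodes LMP2, had 5.28, 7.34 and 6.57 CPM in knockout libraries, against 3.28, 3.47 and 2.70 CPM in wild type libraries (1.02 ± 0.16, edgeR adjusted p = 4.51e-05). Psmb10 (ENSMUSG00000031897, chromosome 8), which encodes MECL-1, had 11.5, 10.6 and 10.6 CPM in knockout libraries, against 4.97, 5.44 and 5.29 CPM in wild type libraries (1.06 ± 0.11, edgeR adjusted p = 9.57e-07). The folds were 2.05, 2.03 and 2.08 in that order, and no library of one genotype reached the other. Psmb9 and Tap1 overlap by 212 exon bases on opposite strands, 5.79% of the exon bases of Psmb9, and the strand setting of the counting is not given in the sources used here. It is therefore not known whether reads from that stretch were counted for the right one of the 2 genes. Tap1 had 207 CPM and Psmb9 6.40 CPM in knockout cells, against 117 and 3.15 CPM in wild type cells.

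Each immunoproteasome subunit takes the place of a constitutive one, and 0 of those 3 counterparts were called higher by edgeR, DESeq2, limma or at an unadjusted p of 0.05. Psmb6, replaced by Psmb9, fell to 167, 172 and 171 CPM in knockout libraries, against 204, 201 and 213 CPM in wild type libraries (-0.28 ± 0.05, edgeR adjusted p = 0.000479). Psmb5, replaced by Psmb8, had 44.7, 45.9 and 45.4 CPM in knockout libraries, against 50.9, 50.1 and 48.7 CPM in wild type libraries, and was not called (-0.14 ± 0.06, edgeR adjusted p = 0.0893). Psmb7, replaced by Psmb10, was not called either (-0.06 ± 0.07, edgeR adjusted p = 0.455). Scaling by library totals shifted the median over all genes upward by 0.20. Under it, Psmb5 and Psmb7 turned to 0.06 and 0.13 and Psmb6 stood at -0.08, and none of the 3 was called.

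The ratio of reads within a library needs no scaling between libraries. For Psmb8 to Psmb5 it was 0.418, 0.401 and 0.374 in knockout libraries, against 0.142, 0.184 and 0.204 in wild type libraries, a difference of 1.19 log2 units. For Psmb9 to Psmb6 it was 0.0317, 0.0428 and 0.0384 in knockout libraries, against 0.0161, 0.0173 and 0.0127 in wild type libraries, a difference of 1.30 log2 units. For Psmb10 to Psmb7 it was 0.103, 0.0948 and 0.0886 in knockout libraries, against 0.0424, 0.0489 and 0.0405 in wild type libraries, a difference of 1.12 log2 units. All 3 ratios were thus higher in every knockout library than in any wild type library. Each of the 5 ratios compared here had an exact permutation p of 0.1, also 0.1 after adjustment over the 5, which is the smallest possible. The immunoproteasome transcripts remained the rarer ones. Per kilobase of exon, Psmb8 averaged 5.33 CPM and Psmb5 50.4 CPM in knockout cells, against 2.60 and 55.5 CPM in wild type cells.

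**Figure D4:**
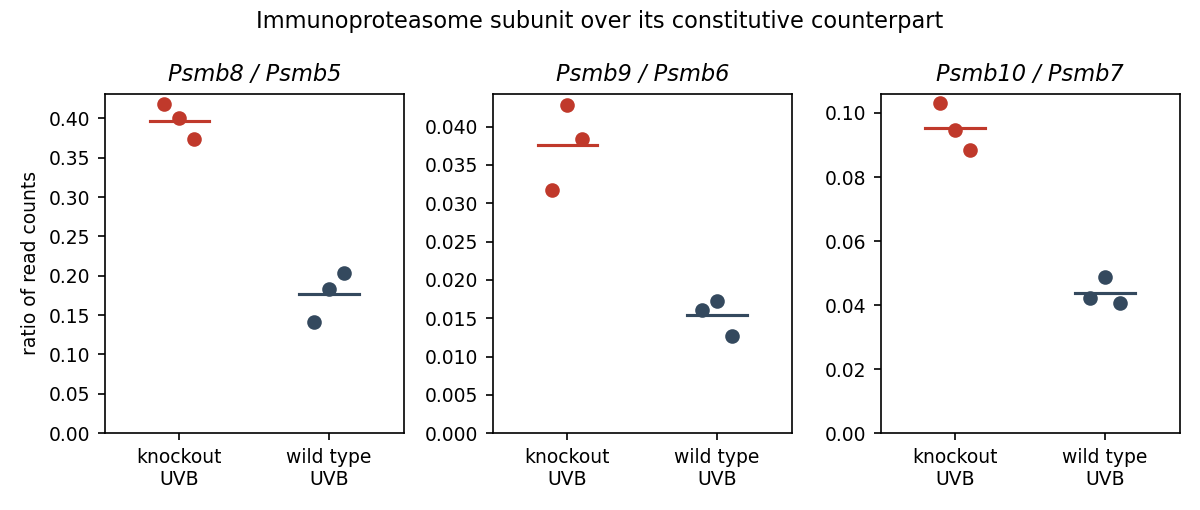
Ratio of read counts of each immunoproteasome gene to the constitutive gene of the same catalytic position, points being libraries and bars their means, on axes that start at 0. In all 3 panels every knockout library lies above every wild type library, as for Psmb8 over Psmb5 with 0.374 to 0.418 against 0.142 to 0.204.

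Most other proteasome genes were lower in knockout cells under TMM scaling. Over all genes tested, 23.7% were lower and 24.8% higher under that scaling. Of 11 other genes of the 20S core, 9 were lower in knockout cells, 0 higher and 2 not called (median -0.27), but with library totals 3 were lower and 1 higher (median -0.07). Psmb3 fell by 0.38 ± 0.06 and Psma1 by 0.34 ± 0.05. Of 18 genes of the 19S cap, which recognises ubiquitin tags, 15 were lower, 1 higher and 2 not called (median -0.35), and with library totals 10 were lower and 1 higher (median -0.15). Psmd11 fell by 0.49 ± 0.06, while Psmd8 rose by 0.16 ± 0.05. Among 5 assembly chaperones, 2 were lower and 3 not called, and with library totals 0 were lower and 1 higher. Pomp, which helps new 20S cores assemble, fell by 0.29 ± 0.06, a call lost with library totals (-0.09).

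The activators of the 20S core split by type. Psme1 and Psme2 encode the 2 subunits of PA28, the interferon-inducible cap that favours peptide release. Psme2 had 117, 107 and 117 CPM in knockout libraries, against 51.2, 50.2 and 57.7 CPM in wild type libraries, a rise of 1.10 ± 0.07 (edgeR adjusted p = 2.18e-09). Psme1 had 101, 104 and 107 CPM in knockout libraries, against 65.5, 61.0 and 63.8 CPM in wild type libraries, a rise of 0.71 ± 0.06 (edgeR adjusted p = 6.83e-08). Psme3, which encodes the related nuclear activator PA28 gamma, fell to 184, 179 and 181 CPM in knockout libraries, against 230, 238 and 243 CPM in wild type libraries (-0.39 ± 0.05). Psme4, for the activator PA200, rose by 0.21 ± 0.08 (edgeR adjusted p = 0.0363), and that call was lost when any of 4 single libraries was left out, with adjusted p from 0.0887 to 0.188.

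**Figure D5:**
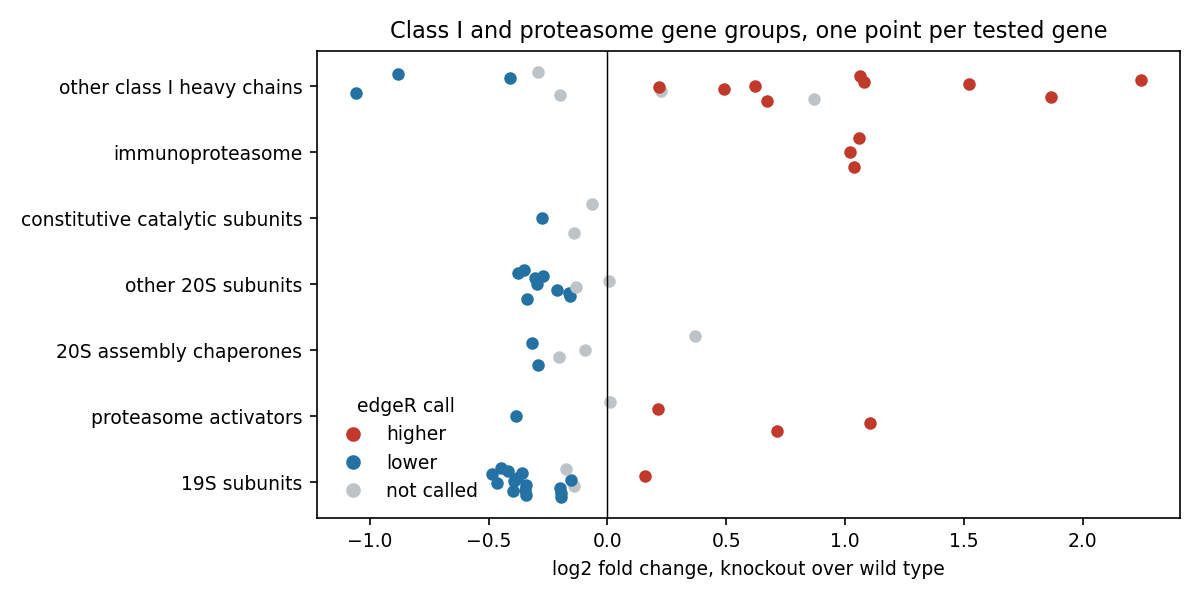
Log2 fold change, knockout over wild type, of each tested gene in 7 groups, coloured by edgeR call. The 3 immunoproteasome genes lie near 1, whereas 9 of 11 other 20S genes and 15 of 18 genes of the 19S cap were called lower.

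Nlrc5 (ENSMUSG00000074151, chromosome 8) was scarce. It had 1.69, 1.26 and 0.803 CPM in knockout libraries, from 161, 125 and 69 counts, against 1.26, 1.42 and 1.27 CPM in wild type libraries, from 141, 165 and 127 counts. The knockout libraries spread on both sides of the wild type ones, and the log2 fold change was -0.07 ± 0.25 (edgeR adjusted p = 0.840). Its 95% interval ran from -0.61 to 0.46, so a rise as large as that of H2-K1 lay inside it and one as large as that of B2m did not. The interval was computed only for the fit of all 6 libraries, and the estimate depended on single libraries. The sign turned with library totals (0.13) and without knockout replicate 6 (0.16). Of its exon bases, 0.918% overlapped 9330175E14Rik on the other strand, which stood at 4.30 CPM in knockout and 1.79 CPM in wild type cells.

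Per kilobase of exon, the 10 genes spanned more than 3 orders of magnitude. In knockout cells B2m was highest at 317 ± 19.5 CPM per kilobase, then H2-K1 at 278 ± 8.35 and H2-D1 at 259 ± 2.83 (SD, n = 3 each). Tapbp followed at 90.2, Tap1 at 37.9, Tap2 at 8.61, Psmb10 at 6.40, Psmb8 at 5.33, Psmb9 at 1.75 and Nlrc5 at 0.147. In wild type cells H2-K1 stood at 225 ± 12.7, B2m at 215 ± 11.3 and H2-D1 at 203 ± 9.63 CPM per kilobase, whose ranges of 1 SD overlap, and the order of the other 7 was the same as in knockout cells. These lengths cover all annotated exons of GENCODE M21. With the longest coding transcript instead, H2-K1 led in both genotypes, at 504 CPM per kilobase in knockout and 409 in wild type cells, and Tap2, Psmb8 and Psmb10 changed places among themselves. The order of B2m and the heavy chains thus depends on the gene model used.

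Several genes that are known to act on class I transcription were higher in knockout cells. Of 31 regulators listed, 15 were higher and 5 lower, while 11 missed the threshold (median 0.22). Over all genes tested, 24.8% were higher and 23.7% lower. The list was not divided into activators and repressors, so these counts do not give a direction of action on class I genes. The 5 lower ones, named after their values were seen, were Atf1 (-0.41 ± 0.07), Nfya (-0.31 ± 0.06), Nfyc (-0.48 ± 0.16), Rela (-0.34 ± 0.07) and Ptpn2 (-0.46 ± 0.11). With library totals 19 of the 31 were higher and 1 lower, and Nfya, Nfyc, Rela and Ptpn2 were no longer called. Irf1, the interferon-induced factor that binds class I and immunoproteasome promoters, had 36.1, 33.2 and 30.2 CPM in knockout libraries, against 7.14, 7.05 and 6.36 CPM in wild type libraries, a rise of 2.27 ± 0.10. Stat2 rose by 0.83 ± 0.08, the kinase gene Tyk2 by 0.71 ± 0.08 and the interferon gamma receptor gene Ifngr2 by 0.74 ± 0.06. Rfx5, which binds beside NLRC5 at the X box, was not called (0.22 ± 0.11, edgeR adjusted p = 0.102), but was with library totals (0.42) and without wild type replicate 2 (0.34).

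None of the interferon genes tested was called. Ifng had 0 counts in all 6 libraries, which allows at most 0.0349 CPM in any of them from counting error alone. Ifnb1 had 0.389, 0.404 and 0.349 CPM in knockout libraries, against 0.493, 0.559 and 0.602 CPM in wild type libraries, and was not called (-0.53 ± 0.32, edgeR adjusted p = 0.189). Of 7 interferon genes listed, 4 were tested by edgeR, 0 were called higher or lower, and 0 passed at an unadjusted p of 0.05. DESeq2 and limma also called 0 of the 4. In 2 of the 4, Ifnb1 among them, every knockout library lay below every wild type one. The genotypes did not overlap in 56.4% of all genes tested.

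MHC class II and surface ligands of killer and T cells were set beside the class I route. Of 12 class II genes 6 were tested, with 3 higher, 1 lower and 2 not called. Over all genes tested, 24.8% were higher and 23.7% lower. Ciita, the class II counterpart of Nlrc5, had 0 counts in the knockout libraries and 4, 0 and 0 in the wild type libraries. H2-DMa, which loads class II peptides, rose by 0.83 ± 0.13 to 6.70 CPM in knockout against 3.78 CPM in wild type cells. Ctss, a lysosomal protease, stood at 0.0684 CPM in knockout and 0.943 CPM in wild type cells and was called lower. H2-DMb1 rose by 0.70 ± 0.20, a call lost without knockout replicate 6 (0.49, edgeR adjusted p = 0.0612), and Cd74 had 0.379 CPM in knockout and 0.172 CPM in wild type cells, called at an edgeR adjusted p of 0.0476 that was lost without any of 5 single libraries (0.0717 to 0.183). Of 7 ligand genes tested, 4 were higher and 1 lower, beside the same 24.8% and 23.7% over all genes tested. Cd274, which encodes the checkpoint ligand PD-L1, had 7.56, 7.02 and 6.85 CPM in knockout libraries, against 3.93, 3.57 and 4.44 CPM in wild type libraries (0.85 ± 0.13). Ulbp1, a ligand of the killer cell receptor NKG2D, rose by 0.88 ± 0.13, and Nectin2 by 0.52 ± 0.08. H60c, another NKG2D ligand, which is made in skin, fell to 30.1, 26.7 and 30.3 CPM in knockout libraries, against 69.5, 71.5 and 71.6 CPM in wild type libraries (-1.29 ± 0.07).

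The genes most like the 10 in pattern were Sap30, Ankrd50, Slc25a17, Etnk1 and Acad8. Likeness was the root mean square difference from the mean centred log2 CPM profile of the 10 over the 6 libraries, among 8034 other genes averaging 10 CPM or more. It ran from 0.0303 for Sap30 to 0.0342 for Acad8, whose log2 fold changes were 0.68 and 0.70. The 6 points are libraries of 2 genotypes and share their scaling.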

How the data were processed

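RNA was sequenced as 150 bp paired reads from 3 Cebpb knockout and 3 wild type libraries, all irradiated. The deposited table holds read counts per Ensembl gene, and the submitters' processing notes name FastQC, STAR, HTSeq, DESeq2 and the build mm39 (GRCm39), with no versions. No strand setting is given in the sources used here. The labels do not state that each library is a separate animal or culture, and the spread behind every p-value may therefore be technical. Intervals and limits cover counting error only where they rest on counts.

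From the counts as deposited, edgeR 4.0.16 (R 4.3.3) fitted all 6 libraries after filterByExpr (minimum count 10) and TMM scaling, with the robust quasi-likelihood test, Benjamini-Hochberg adjustment over 17659 genes and a threshold of 0.05. Values named CPM use TMM-scaled library sizes. The SE was taken as the size of the log2 fold change over the root of its F statistic. Alternatives were DESeq2 1.42.0, limma 3.58.1 with voom, other scalings and filters, leaving out X and Y genes, and leaving out each library. Ratios of counts within a library were tested by exact two-sided permutation. The pipeline was tested on simulated data.

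The 10 genes, the gene lists and the markers were chosen with earlier results of these data known. Genes named besides the 10 were the called genes of each list without overlap, up to 5 by p, a fixed set of regulators and counterparts, and the 5 most like in profile. Pdia3, Psmd8, Mr1, H2-Q7, H2-M3, Trim26, Per1, Kcnq1ot1, Nrarp, Znrd1, Atf1, Nfya, Nfyc, Rela, Ptpn2 and the genes overlapping members were named after their values were seen. Symbols matched 52083 of 55416 gene IDs through a table of gene names. Exon lengths and chromosomes came from GENCODE M21, which is on GRCm38, so its coordinates were not mixed with the counts' build. RefSeq promoter windows matched 8 of the 10 genes (not Tap2 or Nlrc5). 1 gene covered by the naming rule is not reported here.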

Additional observations from a re-analysis of the deposited data

How the results depend on the processing

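The counts of 9 members called higher and 0 called lower held under all 13 alternative settings. Scaling was the choice that moved most: with library totals in place of TMM, 6478 genes were higher and 2452 lower in knockout cells, against 4387 and 4192 as reported, so the share of calls that were higher became 72.5% in place of 51.1%. DESeq2 size factors kept that share at 49.7%. With library totals the log2 fold change of Nlrc5 turned to 0.13, that of Psmb5 to 0.060 and that of Psmb7 to 0.13, none of them called. Leaving out single libraries gave Nlrc5 between -0.35 and 0.16, the sign turning without knockout replicate 6, whose 69 counts were its lowest. The same step moved the log2 ratio difference of Psmb8 to Psmb5 between 1.04 and 1.30, of Psmb9 to Psmb6 between 1.16 and 1.41, of Psmb10 to Psmb7 between 1.07 and 1.20, of Tap1 to Tap2 between 0.48 and 0.55, and of H2-K1 to H2-D1 between -0.06 and -0.03. Of 51 other genes named by rule and with a fit, 12 changed call or direction in some setting, and 633 of 660 gene and setting pairs did not. The cause of these changes was not tested. No paired analysis was possible because the genotypes share no replicate numbers. Nlrc5 had the fewest counts of the 10 genes and the widest SE, 0.25, and its knockout libraries spread more (SD 0.445 CPM) than its wild type libraries (SD 0.0871 CPM). Genes near the limit of 3 counts (0.0258 to 0.0349 CPM) gave no usable fold.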
